A study of Macaca fascicularis with 10 samples.

Results

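Ion channel genes were examined for the balance of their maternal and paternal alleles in the dorsal raphe nucleus. This brainstem nucleus holds many of the serotonin neurons that project to the forebrain. The members were the rows of the count table whose symbols begin with the prefixes of potassium (KCN), calcium (CACN), sodium (SCN) and HCN channels, TRPC, TRPM and TRPV channels, chloride channels (CLCN) and anoctamins (ANO), with SCN2A left out. They made up 69 of 7229 genes, with 25 potassium, 11 calcium, 8 sodium, 13 TRP and 12 chloride or anoctamin rows. No HCN or CACNA2D gene was among them. Membership was read from the symbols, though the gene group itself was picked with earlier results of these data known.

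RNA came from 10 female cynomolgus macaques (Macaca fascicularis), all of 1 group. The labels name the parents of every animal, here called a daughter, and give neither a treatment nor an age. The table counts, for each gene and daughter, the reads assigned to the maternal and to the paternal allele, here called allelic reads. The paternal share is the percent of these reads in the column labelled paternal. A measurement is 1 gene in 1 animal, given 10 or more allelic reads, and it is called unequal here when its 95% Wilson interval leaves out 50%. Reads are not independent molecules, and the intervals cover counting error alone. Numbers 1 to 10 name the daughters and follow the order of the samples.

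Ion channels are membrane proteins whose opening lets ions cross the cell membrane. Sodium and calcium channels depolarise neurons, potassium channels repolarise them and set the resting potential, and auxiliary subunits alter the trafficking and gating of the pore subunits. Serotonin neurons of the dorsal raphe fire slowly and regularly, a pattern that depends on calcium-activated and other potassium currents. TRP channels pass cations after chemical, thermal or mechanical signals, CLCN proteins pass chloride or exchange it for protons, and several anoctamins are calcium-activated chloride channels or lipid scramblases.

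Total allelic reads ranged from 30090 in daughter 1 to 999471 in daughter 6, and ion channel reads from 142 to 6826 in the same daughters. Daughter 1 had 5 measured members and the others 23 to 34. Of the 5 serotonin markers listed, TPH2, SLC6A4, DDC and SLC18A2 were in the table and FEV was not. Also there were 2 of 4 neuron, 2 of 3 oligodendrocyte precursor, 3 of 4 endothelial and 2 of 3 choroid plexus markers. No astrocyte, oligodendrocyte, microglia or cerebellar marker of the lists used here was in the table. The reads of a gene depend on how many positions tell the parents apart in a daughter as well as on its expression, so levels of different genes are not compared. The columns are taken as labelled, but the imprinted genes GRB10 and DLK1 do not keep to 1 side. Of the daughters with 20 or more reads, GRB10 had 90% or more of reads in the paternal column in 4 and 10% or less in 3, and DLK1 in 4 and 1. A direction towards a parent is therefore that of the column, and whether it is that of the parent was not tested.

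Of the 69 members, 49 had a measurement in 1 or more daughters, 27 in 5 or more, and 2 in all 10, the heat- and steroid-gated cation channel gene TRPM3 and the anoctamin ANO5. The other 20 had under 10 reads in every daughter. Examples are the voltage-gated potassium channel gene KCND1, and KCNQ1, KCNJ14, ANO1, TRPV1, TRPV4, CLCN5 and CACNA1F.

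The reads of autosomal members were split close to evenly in every daughter. Summed over those members, the paternal share was 50.4% ± 1.34 (SD, n = 10). The lowest value was 48.8% of 2937 reads in daughter 2 (47.0 to 50.6), the median 50.5% and the highest 52.9% of 1718 reads in daughter 8 (50.5 to 55.2). Daughter 8 was the only 1 of the 10 whose interval left out 50%. There 908 of the 1718 reads were paternal, and CLCN6 alone gave 178 paternal and 84 maternal reads. The sum without CLCN6 was not tested.

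Single genes were less even than their sum. Of 265 measurements, 57 (21.5%) were unequal, 29 towards the paternal and 28 towards the maternal column. Over all genes 20.1% of 27887 measurements were unequal, 9.5% towards the paternal and 10.6% towards the maternal column, so the members' share was near the background. Between 40% and 60% lay 177 (66.8%), against 69.8% over all genes. Only 2 measurements, of TRPV2 and TRPC5, had 90% or more on 1 side, which is 0.755% against 1.87% over all genes. Within title prefix 10203 (6 daughters) 21.0% of the members' measurements were unequal, and within 10480 (4 daughters) 22.3%. The prefix is the only label that could mark a batch.

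More measurements were unequal where reads were many. Among members it was 3 of 35 at 10 to 19 reads, 13 of 78 at 20 to 49 reads, 18 of 71 (25.4%) at 50 to 99 reads and 23 of 81 (28.4%) at 100 or more. Over all genes it was 11.6%, 16.0%, 21.0% and 28.2% in the same classes. By daughter, 17.4% to 33.3% of measured members were unequal, except in daughter 1, which had 0 of 5. Daughter 3 was highest, with 9 of 27. Over all genes the share ran from 12.2% in daughter 1 to 23.1% in daughter 5, and was 20.9% in daughter 3.

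**Figure D1:**
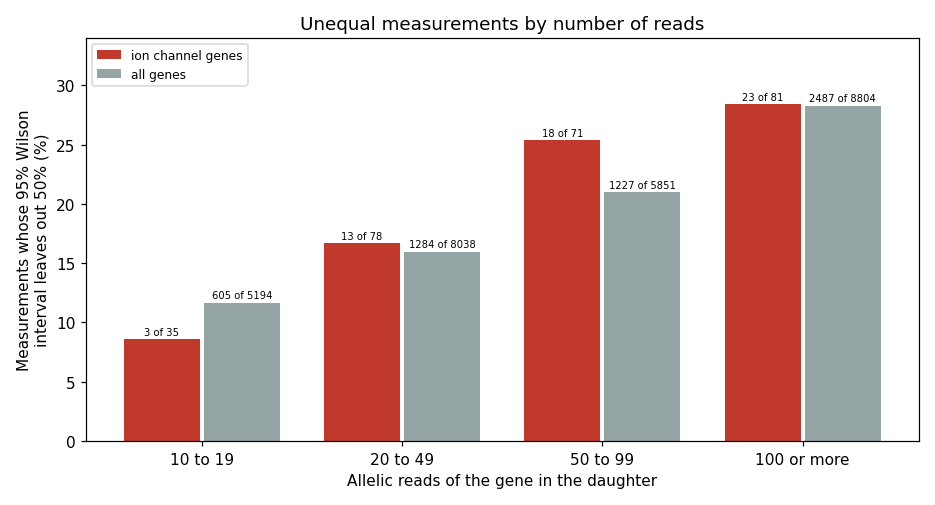
Share of measurements whose 95% Wilson interval of the paternal share leaves out 50% (y axis, percent), by allelic reads of the gene in the daughter (x axis), for ion channel genes (red) and all genes (grey); labels give counts. Both sets rise with reads, to 28.4% and 28.2% at 100 or more reads.

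The columns were compared over daughters for the 27 members with 10 or more reads in 5 or more of them. None differed. By the quasi-likelihood test of edgeR, blocked by daughter, 0 of 27 members and 0 of 2981 genes (0%) passed a Benjamini-Hochberg adjusted p of 0.05. At an unadjusted p under 0.05 there were 0 members and 93 genes (3.12%) with edgeR, and 0 members and 62 genes (2.08%) with DESeq2, which also called 0. The median log2 ratio of paternal over maternal reads was 0.0017 over the members and -0.0069 over all genes tested, with 14 members above 0 and 13 below. A gene that is unequal on differing sides in different daughters is not what this test looks for. The imprinted genes GRB10 and DLK1, which do not keep to 1 column, were among the 2981 and did not pass. A lack of calls therefore does not show that the alleles are equal. Without the read filter 0 members and 2 of 7227 genes (0.0277%) passed. With each other scaling, and on leaving out each daughter, 0 members passed.

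Members among those with the smallest p are given by value, as not passing (adjusted p = 1 for each, edgeR). On the maternal side, ANO6, a calcium-dependent lipid scramblase, had a log2 ratio of -0.38 ± 0.21 (SE) and a mean paternal share of 43.0% ± 8.57 (SD, n = 7), below 50% in 5, above it in 1 and at it in 1. CACNB1, a calcium channel beta subunit, had 45.8% ± 9.72 (SD, n = 8). On the paternal side, CLCN6, a chloride and proton exchanger of late endosomes, had a log2 ratio of 0.25 ± 0.13 (SE) and 53.2% ± 6.67 (SD, n = 9), above 50% in 6 of 9. The sodium channel gene SCN8A and the T-type calcium channel genes CACNA1H and CACNA1I had 52.9%, 52.7% and 54.8%. No member with 5 or more daughters had all its shares on 1 side of 50%.

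**Figure D2:**
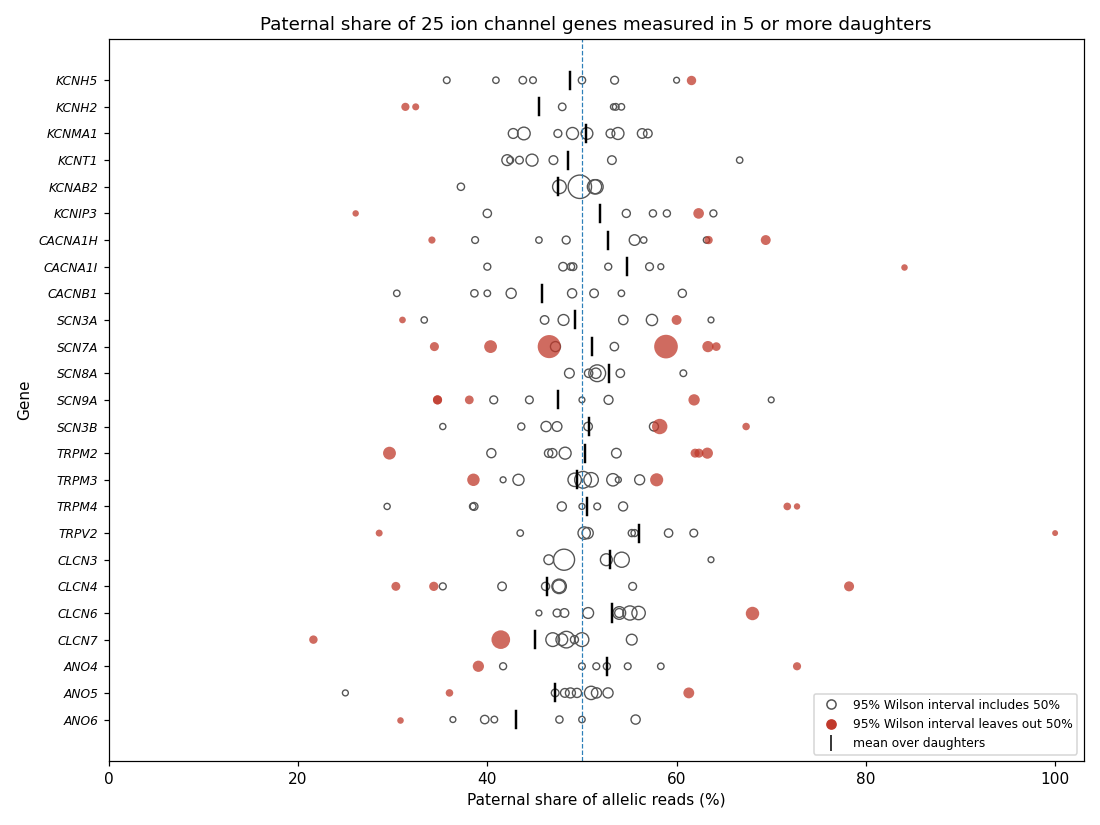
Paternal share (x axis, percent of allelic reads) of 25 of the 27 ion channel genes measured in 5 or more daughters (y axis). Each circle is a daughter, its area rises with reads, red circles have a 95% Wilson interval that leaves out 50%, and black bars are means over daughters; the means drawn lie between 43.0% and 56.1%, and SCN7A and TRPM2 have red circles on both sides.

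The paternal share of a gene varied between daughters, in members as in all genes. This spread was measured as the chi-square of the daughters by allele table over its degrees of freedom. It is near 1 when daughters differ by counting error alone and reads are independent. Reads are not independent molecules, so a value above 1 need not be a difference between daughters. Its median was 2.66 over the 27 members (quartiles 1.53 and 3.27) and 2.01 over all 2981 genes. It was above 2 in 16 members (59.3%) and in 50.3% of all genes, and above 4 in 6 members (22.2%) and in 24.2% of all genes. The members had more reads, with a median of 109 per daughter against 77.4, and among genes with 60 or more reads per daughter the medians were 2.66 and 2.42. Within prefix 10203 it was 2.83 over 16 members and within 10480 2.94 over 15. Without daughter 6 it was 1.95, and without daughter 7 2.22.

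Of the 27 members, 12 (44.4%) were unequal towards the paternal column in some daughters and towards the maternal in others. Over all genes tested this was so for 26.7%. Both counts were higher in genes with more reads and daughters. In genes with 8 or more daughters and 60 or more reads per daughter it was 9 of 14 members and 42.3% of all 863 such genes, and in the rest 3 of 13 and 20.3%. This count was made after the values were seen, with no test. In 9 members the unequal measurements lay on 1 side, and 6 had none (29.0% of all genes had none).

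Several potassium channel members were near balance in most daughters. KCNMA1, the pore of the large-conductance calcium-activated channel, lay between 42.7% and 57.0%, its mean being 50.4% ± 5.11 (SD, n = 9), and none of its 9 measurements was unequal. Its spread was 1.36. KCNT1, a sodium-activated potassium channel, ranged from 42.1% to 66.7% (48.5% ± 8.87, SD, n = 7), again with no unequal measurement. KCNH2, which carries the rapid delayed rectifier of the heart and is also expressed in neurons, had 31.3% on 67 reads in daughter 4 and 32.4% on 37 in daughter 10, and 47.9% to 54.2% in the other 4 daughters. Its relative KCNH5 had 61.5% on 104 reads in daughter 5 and no other unequal measurement in 8 daughters. The inward rectifier member KCNJ3 and the 2-pore leak channel member KCNK3 were each measured in 1 daughter, at 42.1% on 19 and 45.5% on 11 reads. KCNK10 was measured in 2, at 32.4% on 34 reads in daughter 2 and 48.1% on 27 in daughter 5.

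Auxiliary subunits were unequal in 6 of 60 measurements (10.0%) and pore-forming members in 51 of 205 (24.9%). Over all genes it was 20.1%. The median measurement had 47.5 reads for auxiliary and 71 for pore-forming members, and over all genes 16.0% were unequal at 20 to 49 reads and 21.0% at 50 to 99. No test was made of the difference. KCNAB2, a cytoplasmic beta subunit of voltage-gated potassium channels, had the most reads of the potassium members. Its share was 51.3% on 302 reads in daughter 2, 51.5% on 303 in daughter 4, 49.8% on 890 in daughter 6, 47.6% on 273 in daughter 9 and 37.2% on 43 in daughter 10 (24.4 to 52.1). The first 4 values lay within 4 points of each other, and the interval of the low value includes 50%. KCNIP3, a calcium-binding partner of Kv4 channels also known as a transcriptional repressor, was at 62.3% on 146 reads in daughter 5 and 26.1% on 23 in daughter 7. The other 5 daughters lay from 40% to 63.9%.

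Sodium channel pore genes were unequal in 12 of 32 measurements (37.5%), against 20.1% over all genes. Their median measurement had 91 reads, and over all genes 21.0% were unequal at 50 to 99 reads and 28.2% at 100 or more. No test was made of this count. SCN7A, an atypical channel that senses extracellular sodium and is known from glia and sensory regions, had 6 of these in 8 daughters and a spread of 9.51. It had 58.9% on 912 reads in daughter 3 (55.7 to 62.0), 64.2% on 81 in daughter 7 and 63.3% on 169 in daughter 8. It had 34.4% on 93 reads in daughter 5, 46.5% on 868 in daughter 6 (43.2 to 49.9) and 40.3% on 233 in daughter 10. Daughters 2 and 9 were at 53.4% and 47.2%, with intervals that include 50%. Daughters 7 and 8, with the same father, were both on the paternal side, and daughters 6 and 10, with the same mother, both on the maternal side. Over the 5 pairs of daughters with a shared parent, these were 2 of 76 measurements of autosomal members shared by a pair, against 5.57% of 6826 over all autosomal genes. Over all autosomal genes unequal in both daughters of such a pair, 191 of 380 were on the same side, with 39 of 58 in daughters 7 and 8 and 30 of 136 in daughters 6 and 10. The agreement of SCN7A is thus 2 values, with no test. In daughters 4 and 5, with the same father, 25 autosomal members were measured in both and 0 were unequal in both, against 5.82% over all autosomal genes.

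SCN9A lies next to SCN7A in the RefSeq gene table of the macaque assembly T2T-MFA8v1.1, with no coding gene between them. It encodes a sodium channel best known from pain-sensing neurons. Its share was 34.7% on 95 reads in daughter 2 and the same in daughter 3, with 62 maternal and 33 paternal reads in each. Daughter 9 had 38.1% on 84 reads and daughter 6 61.8% on 173 (54.4 to 68.8). The other 5 daughters lay from 40.7% to 70%, with intervals that include 50%. Of the 8 daughters measured for both neighbours, 4 had both shares on the same side of 50%. Daughters 3 and 6 were unequal for both neighbours, on opposite sides in each. In daughter 3 SCN7A was on the paternal and SCN9A on the maternal side, and in daughter 6 the sides were exchanged.

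SCN8A, a main sodium channel of the axon initial segment, had the lowest spread of the 27, at 0.304. Its values were 48.7%, 51.5%, 60.7%, 54.1%, 51.6% and 50.7% in daughters 2, 3, 4, 5, 6 and 10, on 28 to 434 reads, and none was unequal. SCN3A, a sodium channel of the developing brain, was unequal in 2 of 8 daughters, with 31.0% on 29 reads in daughter 9 and 60% on 120 in daughter 10. The beta subunit SCN3B was unequal in daughters 6 and 9, with 58.2% on 359 and 67.3% on 49 reads.

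**Figure D3:**
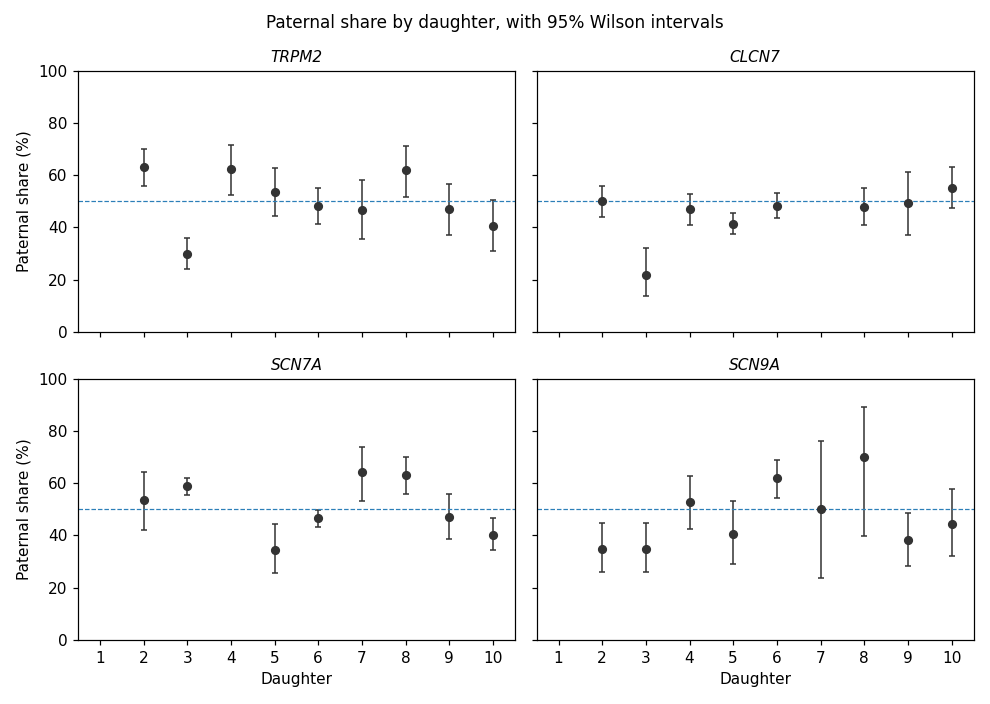
Paternal share (y axis, percent) of TRPM2, CLCN7, SCN7A and SCN9A in each daughter with 10 or more reads (x axis), with 95% Wilson intervals as bars. TRPM2 and CLCN7 are low in daughter 3, at 29.7% and 21.6%. SCN7A and SCN9A take opposite sides in daughters 3 and 6, and the same side in 4 of the 8 daughters measured for both.

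Calcium channel members gave 5 unequal measurements of 39 (12.8%), against 20.1% over all genes. Their median measurement had 41 reads in CACNA1, 51 in CACNB and 34 in CACNG genes. Over all genes 16.0% were unequal at 20 to 49 reads and 21.0% at 50 to 99, and no test was made of the calcium count. CACNA1H had 69.4% on 121 reads in daughter 6, 63.4% on 71 in daughter 4 and 34.1% on 41 in daughter 9. Within prefix 10203 its mean was 58.6% ± 8.05 (SD, n = 5) and within 10480 45.4% ± 12.7 (SD, n = 4). This difference between prefixes was not called (log2 -0.82 ± 0.42, SE, edgeR adjusted p = 1), and 0 of 27 members were, against 1 of 2981 genes (0.0335%), CDIPT. At an unadjusted p under 0.05 there were 0 members and 3.56% of genes with edgeR, and 0 members and 2.65% with DESeq2, which called GNAS alone. CACNA1I was near balance in 7 daughters, from 40% to 58.3%, and at 84.0% on 25 reads in daughter 6 (65.3 to 93.6). The beta subunit CACNB2 had 75.4% on 69 reads in daughter 3 and 54.5% on 22 in daughter 7. CACNB1 was unequal in none of 8 daughters and the CACNG genes, which include AMPA receptor auxiliary subunits, in none of 10 measurements, CACNG4 being at 54.1% on 85 and 42.9% on 49 reads.

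Among TRP channels, TRPM2, a calcium-permeable channel opened by ADP-ribose and oxidative stress, had a spread of 8.21. Its share was 29.7% on 236 reads in daughter 3 (24.2 to 35.8), and 63.3% on 166, 62.4% on 93 and 62.0% on 92 reads in daughters 2, 4 and 8. The remaining 5 daughters lay from 40.4% to 53.6%, so daughter 3 was the only 1 unequal towards the maternal column. TRPM3 had 38.5% on 218 reads in daughter 8 and 57.9% on 247 in daughter 10, and 41.7% to 56.1% in the other 8 daughters. Its mean was 49.5% ± 6.41 (SD, n = 10). TRPM4, a calcium-activated cation channel, was at 71.7% on 53 reads in daughter 4 and 72.7% on 22 in daughter 9, and from 29.4% to 54.3% elsewhere. TRPV2 had the largest SD of the 27, with a mean of 56.1% ± 19.2 (SD, n = 9). That value rests on 12 reads in daughter 9, all paternal (75.8 to 100), and 28.6% on 35 reads in daughter 7. On 166 and 213 reads in daughters 2 and 3 it was at 50.6% and 50.2%. TRPV3 was measured on 14 reads in each of 2 daughters, at 78.6% and 42.9%.

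The chloride channel CLCN7, an exchanger of lysosomes that also serves bone resorption, had 21.6% on 74 reads in daughter 3 (13.8 to 32.3) and 41.4% on 548 in daughter 5 (37.4 to 45.6). It lay from 46.9% to 55.3% in the other 6 daughters. Without the low value its daughters spanned 41.4% to 55.3%. CLCN6 had 67.9% on 262 reads in daughter 8 (62.1 to 73.3), and 45.5% to 56.0% in the other 8. CLCN3, an endosomal exchanger, was unequal in none of 5 daughters, with 48.1% on 713 reads in daughter 6. ANO5 was at 61.3% on 155 reads in daughter 2 and 36.0% on 50 in daughter 8, and ANO4 at 72.7% on 66 in daughter 3 and 39.1% on 169 in daughter 6.

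The X-linked members took the side of the other X-linked genes in their daughter, with 1 exception. In females each cell keeps 1 X chromosome active, and tissue in which the active X is more often that of 1 parent gives unequal alleles along the whole chromosome. CLCN4, a further endosomal exchanger, had 78.2% on 124 reads in the paternal column in daughter 4 (70.2 to 84.6), where the median of 93 other X-linked genes with 20 or more reads was 73.4%. It had 34.3% on 99 reads in daughter 3, 35.3% on 34 in daughter 5 and 30.3% on 89 in daughter 10, beside X-linked medians of 27.7%, 27.7% and 29.7%. In daughters 2, 6, 7 and 9 it had 41.6%, 47.6%, 55.4% and 47.6%, beside 39.4%, 44.7%, 57.1% and 43.0%. Daughter 8 was the exception, with 46.2% beside 52.8%, and the interval there includes 50%. CLCN4 was thus on the X-linked side in 8 of 9 daughters, but its interval left out 50% in 3 of these 8 and included it in the other 5. It had a median distance of 4.58 points from the X-linked median.

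TRPC5, a receptor-operated cation channel, had 76.7% on 73 reads in daughter 4, 9.09% on 22 in daughter 5 (2.53 to 27.8) and 29.2% on 24 in daughter 10. It was on the X-linked side in all 3 daughters. Together the X-linked members were unequal in 6 of 12 measurements, against 53.1% of 825 over other X-linked genes and 18.9% over all autosomal genes. Autosomal members were unequal in 51 of 253 (20.2%). CLCN5, CACNA1F and KCND1 are X-linked too, with no measurement. CLCN4 had a spread of 8.59. The edgeR comparison of the columns did not call it (adjusted p = 1).

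**Figure D4:**
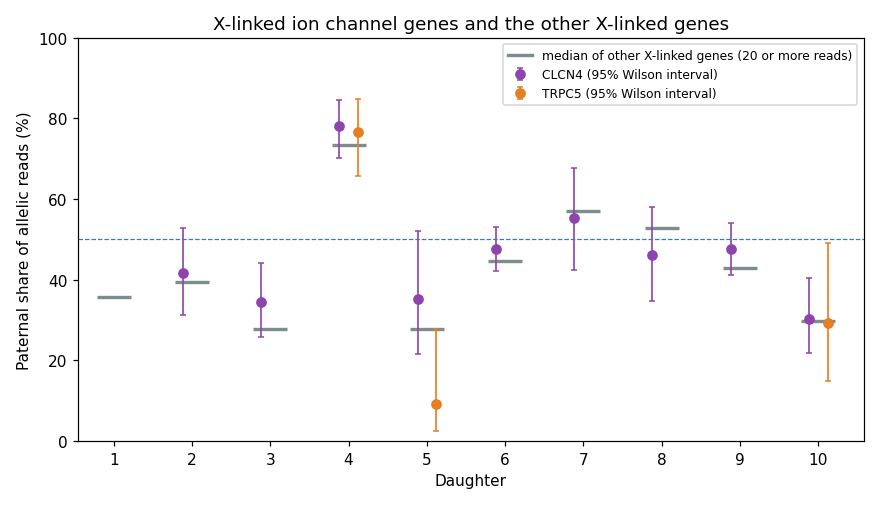
Paternal share (y axis, percent) of CLCN4 and TRPC5 by daughter (x axis), with 95% Wilson intervals, and the median of the other X-linked genes with 20 or more reads (grey bars). Both genes lie above 50% in daughter 4, at 78.2% and 76.7%, and CLCN4 lies below 36% in daughters 3, 5 and 10, as the grey bars do.

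Both alleles of a gene were then compared across daughters, as CPM, the reads scaled by the total of their own column. In all 19 members with 8 or more daughters maternal and paternal CPM had a Pearson r above 0 (97.7% of 1108 genes). Permutation tests of the daughters with Benjamini-Hochberg adjustment over all 1108 genes called 14 of the 19, against 74.2% of all genes, so the members were near the background. The median r was 0.84 over the members and 0.86 over all genes. Positions that tell the parents apart raise or lower both columns of a daughter at once. Their part in r and that of expression cannot be told apart here.

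KCNMA1 had the highest r of the members, 0.97 (n = 9, exact permutation p = 3.58e-05, adjusted p = 0.000551) and rho of 0.93 (exact p = 0.00075, adjusted p = 0.00419). Its maternal CPM ran from 93.5 in daughter 4 to 743 in daughter 7, and its paternal CPM from 100.04 to 717. Without the 2 daughters farthest from the median r was 0.95. CACNA1I had 0.93 (n = 8, exact permutation p = 0.000298, adjusted p = 0.00146) with rho of 0.90 (exact p = 0.00456), and 0.98 without the 2 farthest daughters. TRPV2 had 0.92 (n = 9, exact permutation p = 0.00516, adjusted p = 0.0106) with rho of 0.80 (exact p = 0.0138), but 0.39 without the 2 farthest, so its relation rests on those daughters. TRPM3 had 0.85 (n = 10, permutation p = 0.00177, adjusted p = 0.00469) with rho of 0.88 (permutation p = 0.0016), and 0.95 without the 2 farthest.

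Among the lowest r were those of CACNA1H and TRPM2. CACNA1H had 0.45 (n = 9, exact permutation p = 0.227, adjusted p = 0.251) and rho of 0.57 (exact p = 0.121). TRPM2 had 0.25 (n = 9, exact permutation p = 0.495, adjusted p = 0.517) and rho of 0.55 (exact p = 0.133). Both had unequal measurements on both sides. In TRPM2, daughter 3 had 504 maternal and 218 paternal CPM. Over all 19 members, leaving out the 2 farthest daughters lowered the median r from 0.84 to 0.53 and the calls to 7 (36.8%, against 31.5% of all genes). Of the 3 members measured in all 6 daughters of prefix 10203, 1 was called there, against 59.6% of 230 genes.

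**Figure D5:**
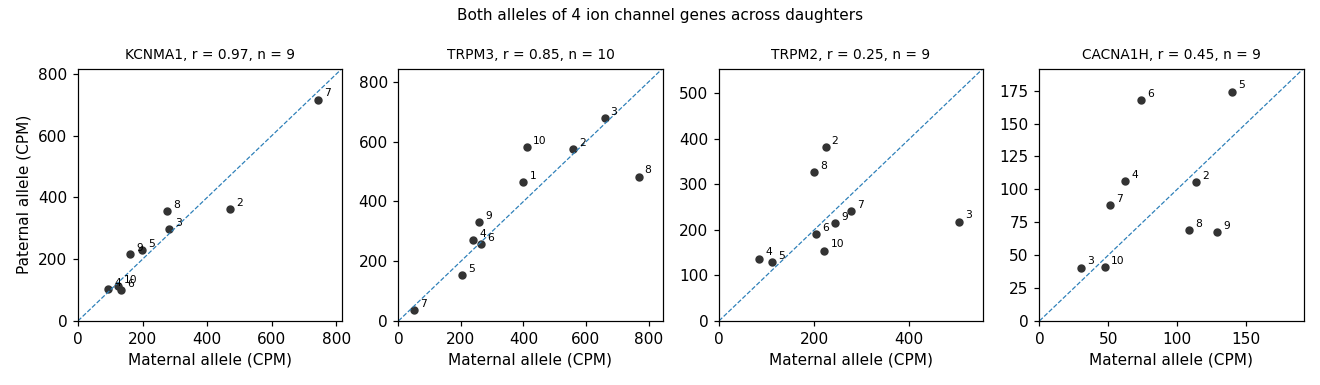
Maternal (x axis) against paternal (y axis) CPM of KCNMA1, TRPM3, TRPM2 and CACNA1H, each point a daughter with 10 or more reads, labelled with her number; the dashed line marks equal alleles. KCNMA1 (r = 0.97) and TRPM3 (r = 0.85) lie mostly near the line, daughter 8 of TRPM3 being farther from it, and daughter 3 of TRPM2 and daughter 6 of CACNA1H lie off it.

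Of 72 other channel genes and channel partners, 39 were in the table and 21 were measured in 5 or more daughters. They were unequal in 40 of 189 measurements (21.2%), near the 20.1% of all genes, and none was called between the columns. NALCN, the sodium leak channel that sets the resting potential, had 49.5% ± 4.58 and its partner UNC80 51.1% ± 8.0 (SD, n = 10 each). DPP10, a partner of Kv4 channels, ranged from 41.9% to 78.9% over 10 daughters.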

How the data were processed

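Stranded libraries of total RNA, depleted of ribosomal RNA, were sequenced, per the labels' protocols, whose chromatin step has no data analysed here. The aligner was Novoalign (submitters' processing notes). The authors deposited whole-number counts per gene and parental allele on build macFas5, per the file headers. Phasing, the positions used and read filters are not given in the sources used here.

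Columns were matched to daughters by title. The test between columns was edgeR 4.0.16 under R 4.3.3 (robust glmQLFit, then glmQLFTest), with the daughter as block, library size summed over both columns and 10 or more reads in 5 or more daughters. SE is the unshrunken coefficient over the root of F. Genes without a value entered that fit as 0 in both columns. DESeq2 1.42.0 (poscounts size factors) was the other tool. The model was tested on simulated data, as was the correlation test, which permuted daughters, exactly under 10 daughters and 100000 times otherwise. Other steps used SciPy 1.17.1, pandas 2.3.3, NumPy 2.4.6 and matplotlib 3.10.9 under Python 3.11.15. Chromosome X and neighbours came by symbol from RefSeq's table of T2T-MFA8v1.1, another build, which matched 68 of 69 members.

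Members and lists were chosen with earlier results of these data known. Named were the 5 members with the smallest p on each side, a measurement with 20 or more reads and 90% or more on 1 side, or all 10 daughters, those with most reads in a family, the largest or smallest SD or the highest or lowest r, and X-linked members, 42 in all. Some of these are not reported here, but stay in all counts. SCN3A, CLCN3 and KCNIP2, and ANO1, TRPV1 and TRPV4 as members with few reads, fall outside this rule and were chosen after their values were seen, as was the count of genes unequal on both sides. Daughters are separate animals of 1 group. Alternatives were other scalings, read minimums, tools, intervals, batches by title prefix and leaving out each daughter.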

Additional observations from a re-analysis of the deposited data

Results flagged for a closer look

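In 7 of the 31 members measured in 4 to 10 daughters, 1 daughter lay far from the others. The rule was Dixon's 95% limit on the gap to the nearest daughter over the whole range. It flags about 1 in 20 groups by chance where values are normal and equally precise. The shares here rest on unequal reads, such as 12 to 213 for TRPV2, so that rate need not hold. Over all genes the same rule gave 427 of 3646 (11.7%), and the members' 22.6% was not tested against it. In daughter 8 the paternal share of CLCN6 was 67.9% on 262 reads, where the next value was 56.0%. CLCN7 had 21.6% on 74 reads in daughter 3, next to 41.4%. CACNA1I had 84.0% on 25 reads in daughter 6, next to 58.3%. TRPV2 had 100% on 12 reads in daughter 9, next to 61.8%. KCNAB2 had 37.2% on 43 reads in daughter 10, next to 47.6%. In daughter 3, CACNG7 had 55.0% on 40 reads, next to 42.0%, and KCNIP2, a Kv4 partner, had 61.3% on 31 reads, next to 41.7%, over 4 daughters each. The intervals of KCNAB2, CACNG7 and KCNIP2 include 50%.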

How the results depend on the processing

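No ion channel gene was called between the columns or between prefixes under any alternative run, the fit with no replicate block included. That fit ignores the pairing of the columns within a daughter. It had 0 of 2981 genes at an unadjusted p under 0.05 (edgeR), so its lack of calls is no support. Over all genes, calls between the columns were 0 except for 2 without the read filter (FAM199X and ZIM2), and 0 to 1 when leaving out each daughter, the 1 being TSPAN7 without daughter 4. The 1 gene called between prefixes became 0 without the read filter. Calls of the allele correlation among members were 14 of 19 (73.7%), against 74.2% of all genes. With 20 or more reads they were 9 of 13 (69.2%), against 77.8%, so fewer members were tested there. Without the 2 farthest daughters they were 7 of 19 (36.8%), against 31.5%. Within prefix 10203 they were 1 of 3, against 59.6% of 230 genes. Leaving out each daughter gave 11 to 15 calls among 19 to 22 members (52.4% to 70.0%), against 64.5% to 68.6% of all genes. Unequal measurements fell from 21.5% to 12.8% with a 99% interval, by its construction, and were 20.2% to 22.1% when leaving out each daughter. The median spread was 1.95 to 2.86 in the same runs. The log2 ratio of CACNA1I, 0.19, ran from -0.013 without daughter 6, its far value, to 0.29 without daughter 5. For the other 9 of the 10 genes run, the 5 with the smallest p on each side, the direction held in every run. These genes were picked by p from the same daughters, so a held direction is no support. Some ratios came close to 0, as in CACNA1H without daughter 6 (0.015 ± 0.21, SE) and TRPV2 without daughter 9 (0.069 ± 0.20, SE). Of 412 mean shares of 32 named genes under alternatives, 411 moved by less than 1 SD of the gene's daughters. Leaving out 1 daughter cannot move a mean that far, so those runs could not come out otherwise and are no support. Where no cause is named, the cause was not tested. Reads per measurement set the precision, and 35 of the 265 measurements had under 20 reads.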
